A study of Homo sapiens with 2 samples.

Results

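The ATF4 stress response and the genes of amino acid supply were followed as a list of 38 genes in SK-N-AS (AS), a line of human neuroblastoma cells whose MYCN is not amplified. The list holds ATF4, its partner transcription factors, stress effectors, enzymes of amino acid and one-carbon synthesis, and amino acid transporters. Each gene was found by its symbol in a table of 62573 rows, and where a symbol had several rows the one with the highest summed value was taken. All 38 symbols were found, and 34 reached 1 FPKM (read density on a transcript, scaled to its length and to the mapped reads of the library) in either library, as did 13527 rows in all, which are called expressed. The study measured poly A selected RNA of AS WT, the unedited parental culture, and of AS STRAP KO, in which STRAP was cut by CRISPR-Cas9. AS STRAP KO was grown from 1 sorted cell, so it is a single clone. Both were untreated and were kept in the same medium with fetal bovine serum, L-glutamine and non-essential amino acids. The table has 1 column per condition, so no ratio could be checked against replicates or tested.

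ATF4 is the effector of the integrated stress response. Kinases that sense unfolded protein, missing amino acids, double-stranded RNA or heme shortage phosphorylate the initiation factor eIF2, which slows translation in general while the ATF4 mRNA is translated more. ATF4 protein then pairs with C/EBP family proteins and induces genes for amino acid synthesis and uptake, for tRNA charging, and for feedback that ends the response. The response is controlled in large part at translation, so the level of ATF4 mRNA does not measure ATF4 protein.

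STRAP itself, the edited gene, was at 244 FPKM in AS WT against 179 FPKM in AS STRAP KO (log2 ratio -0.45). This RNA level does not measure the edit or the protein. For AS STRAP KO the paper reports a sequence gap at the guide position and, by immunoblot, no detectable STRAP protein. Of markers of the neuroblastoma lineage, HAND2 had 227 and 228 FPKM, while the noradrenaline enzyme genes TH and DBH were at or near 0 in both libraries. Of 10 such markers 7 were expressed, with a median log2 ratio of -0.997. The summed level was 465 and 368 FPKM, a large part of it from HAND2. By 1.5-fold or more 4 of the 7 were lower and 1 was higher in AS STRAP KO, where 19.2% and 17.6% of all rows were. Of the 4, 2 had passed 1 FPKM only through AS WT, and the median includes them. Of 8 mesenchymal markers, summing to 1752 and 1498 FPKM, 3 were higher and 3 were lower by 1.5-fold or more, beside the same shares of all rows. The part of these shifts in the ratios of other genes was not tested, and in bulk RNA fewer cells of a type and less RNA per cell cannot be told apart. Of 10 immune, epithelial and endothelial markers, 4 were listed at 0 in both, among them the immune markers PTPRC and CD3E. Another 2 were expressed, both within 1.5-fold, and the 10 summed to 2586 and 2706 FPKM. Nearly all of that sum came from the 2 expressed markers, so the markers of this list were not all absent. From the steps between low values, a gene at 1 FPKM was estimated to have 26.3 reads per 1000 bases in AS WT and 26.7 in AS STRAP KO. The interval given beside a ratio is a 95% Clopper-Pearson interval from the reads this gives for the shortest annotated protein-coding transcript, and it covers counting error only.

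Taken as a list, the 34 genes with at least 1 FPKM did not move together. Their log2 ratios, AS STRAP KO over AS WT, had a median of -0.03, beside 0.00 over all 13527 rows, with 17 genes above 0 and 17 below. Of the 34, 1 was at least 2-fold higher, where 8.31% of all rows were, and none was at least 2-fold lower, where 10.6% of all rows were. At a limit of 1.5-fold, 4 of the 34 were higher and 1 was lower, where 17.6% and 19.2% of all rows were. The other 29 genes (85.3%) lay within 1.5-fold, as did 63.2% of all rows. Abundant genes had smaller ratios in general. Among rows that reached 10 FPKM in either library, 72.9% lay within 1.5-fold, with 4.75% higher and 5.38% lower by 2-fold or more, and 13.2% higher and 14.0% lower by 1.5-fold or more. Of the 27 listed genes at this level, 24 lay within 1.5-fold, 3 were at least 1.5-fold higher, none was at least 1.5-fold lower, and none was beyond 2-fold.

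**Figure D1:**
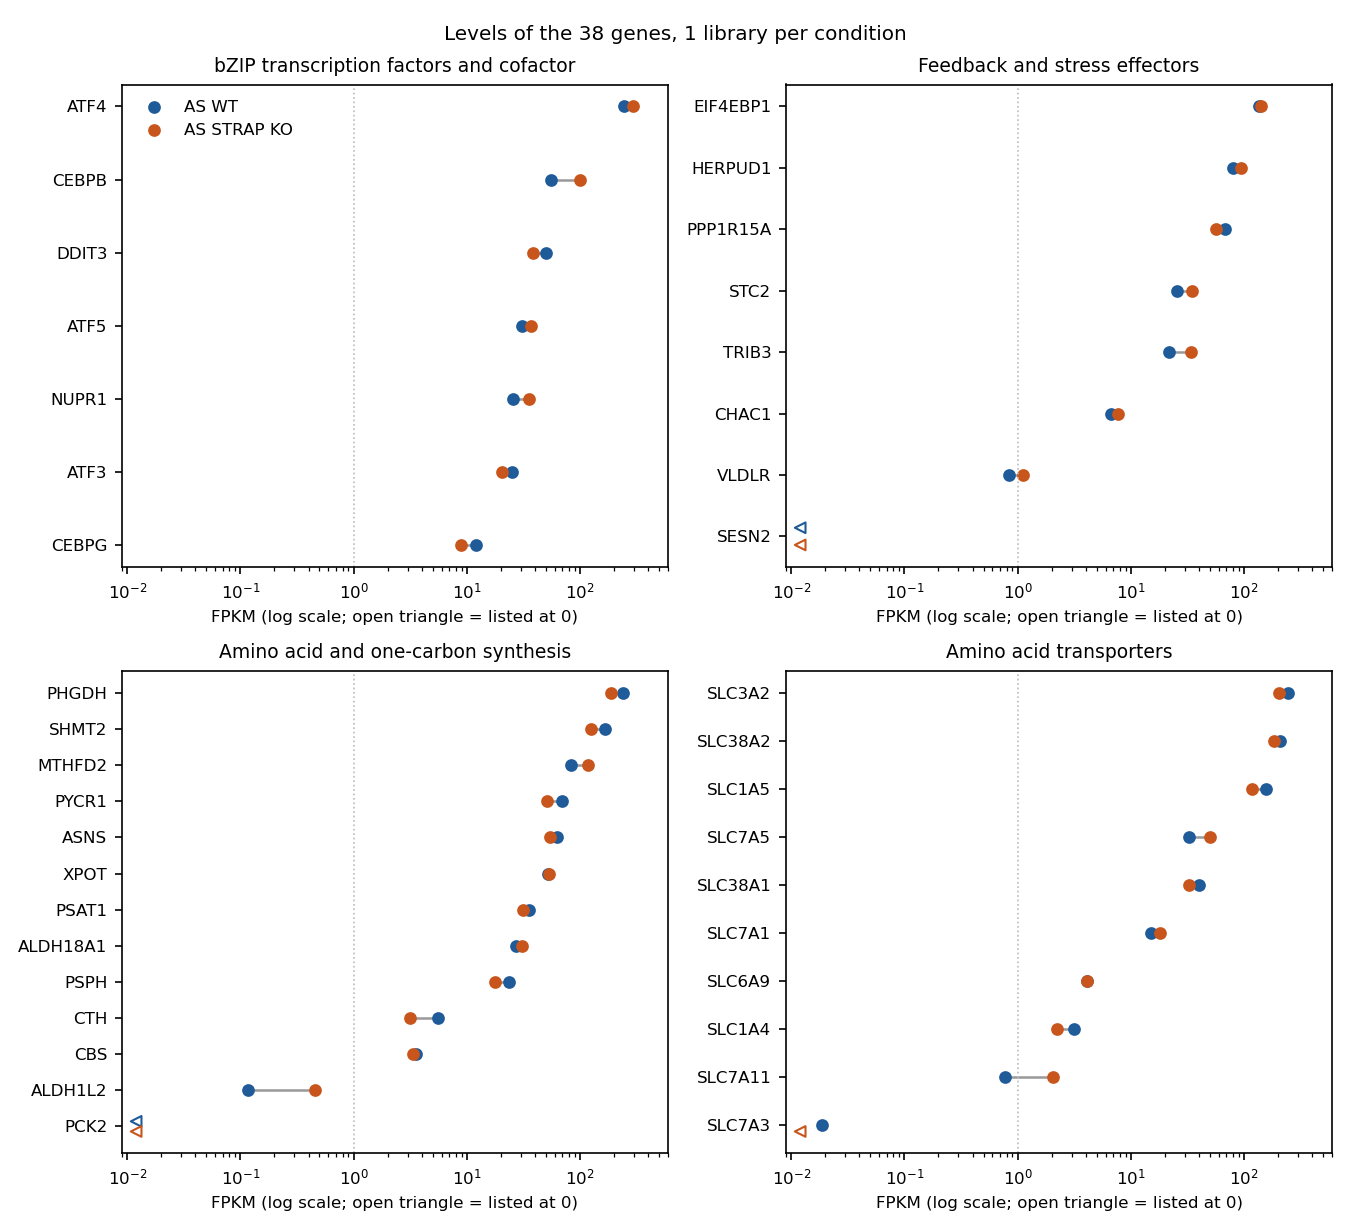
FPKM of each of the 38 genes in AS WT (blue) and AS STRAP KO (orange) on a log axis, in 4 panels by role, with 1 library per condition and open triangles for values listed at 0. Most pairs of points lie close together, and the widest gaps among the 34 expressed genes are those of SLC7A11, CEBPB and CTH.

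Other scalings shifted all ratios together. Rescaling both libraries to a common total added 0.11 to every log2 ratio, or 0.15 without the rows of mitochondrial genes, and scaling by the upper quartile of rows above 0 in each library added -0.16. On the scale as deposited, the counting interval lay above 0 for 11 of the 34 genes, below 0 for 14 and across 0 for 9. The same shares over all rows were not computed, so these counts describe counting precision and do not set the listed genes apart. Of the 34 genes, 30 kept the sign of their ratio under each scaling. The 4 genes whose sign turned were CBS, XPOT, EIF4EBP1 and SLC6A9, all with log2 ratios between -0.08 and 0.07. The 1.5-fold counts moved with the scaling. Without mitochondrial rows 6 of the 34 were higher and 1 was lower, beside 24.5% and 16.4% of all rows, and with the upper quartile of rows above 0 only SLC7A11 and CEBPB were higher and 4 were lower, beside 12.8% and 25.5%.

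ATF4 commonly binds a composite C/EBP-ATF site. The core TGATGNAA, where N is any base, was searched on both strands of the RefSeq promoter windows of GRCh38.p14, which run from 250 bases before to 50 bases after each annotated gene start. Windows were matched by symbol for 30 of the 38 genes, some with several starts, and none was found for ALDH1L2, EIF4EBP1, NUPR1, PSPH, PYCR1, SHMT2, SLC7A11 and SLC7A3. The core was present for 10 of these 30 genes (33.3%), against 4.46% of all 27305 symbols, or in 20.8% of 48 windows against 3.62% of all 35116. A site of this kind is one of the grounds on which genes come to be listed as ATF4 targets, so the share is given as a description. The 5 genes whose match has C at the free base, and ASNS, whose promoter is the best studied of these, are shown with the match in capitals, read 5′ to 3′ on the strand of the gene. In CHAC1, HERPUD1 and SLC1A4 the core lies on the opposite strand, so the capitals show its reverse complement.
CEBPG, chr19:33374060-33374089, plus strand: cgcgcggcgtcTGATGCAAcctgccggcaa
SLC1A5, chr19:46784893-46784922, minus strand: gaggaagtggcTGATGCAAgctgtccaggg
CHAC1, chr15:40953251-40953280, plus strand: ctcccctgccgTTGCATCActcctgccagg
HERPUD1, chr16:56931955-56931984, plus strand: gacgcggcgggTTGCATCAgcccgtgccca
SLC1A4, chr2:64989381-64989410, plus strand: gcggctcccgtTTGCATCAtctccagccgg
ASNS, chr7:97872458-97872487, minus strand: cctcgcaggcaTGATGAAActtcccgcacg

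The other matches were in the windows of ATF3, SLC38A1, SLC3A2 and SLC7A1. The 10 genes with the core had log2 ratios from -0.48 to 0.27 with a median of -0.28, and 3 were above 0. The 18 expressed genes whose windows lacked it ranged from -0.82 to 0.85 with a median of 0.11, and 11 were above 0. The ER stress element, CCAAT followed by 9 bases of any kind and CCACG, had no match in the windows of the listed genes. It was found in only 0.0769% of all windows, so the lack of a match in 48 windows says little about these genes.

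Among the transcription factors, the level of ATF4 mRNA was close in both libraries and its partners moved in both directions. ATF4 (ENSG00000128272.18, chromosome 22, 39519695 to 39522683 of GRCh38) stood at 246 FPKM in AS WT against 296 FPKM in AS STRAP KO (log2 ratio 0.27, interval 0.20 to 0.33). It was by far the most abundant of these genes in both libraries. Its expressed protein-coding neighbours, 92 genes within 5 Mb, had a median log2 ratio of 0.24.

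CEBPB, a C/EBP protein that pairs with ATF4, had the highest ratio of the transcription factors. It is a gene of 1 exon (ENSG00000172216.6, chromosome 20 from 50190830 to 50192668), with 55.0 FPKM in AS WT against 99.5 FPKM in AS STRAP KO. This is 1.81-fold higher (log2 ratio 0.85, interval 0.78 to 0.93), and 10.8% of all rows had a ratio at least as high. CEBPG, another C/EBP partner of ATF4, went the other way, with 12.2 FPKM in AS WT against 8.84 FPKM in AS STRAP KO (log2 ratio -0.46). CEBPB therefore stood at 4.52 times the level of CEBPG in AS WT and at 11.3 times in AS STRAP KO.

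The stress-induced factors downstream of ATF4 had small ratios of either sign. DDIT3, which encodes the pro-apoptotic factor CHOP and shares its row with AC022506.1, had 49.8 FPKM in AS WT against 38.2 FPKM in AS STRAP KO (log2 ratio -0.38). ATF3, a repressor induced by ATF4, had 25.4 and 20.6 FPKM (log2 ratio -0.30, interval -0.62 to 0.01). ATF5, which like ATF4 is translated more under stress, had 30.6 and 37.3 FPKM (0.28). NUPR1, a stress-induced chromatin cofactor, had 25.8 FPKM in AS WT against 35.7 FPKM in AS STRAP KO (log2 ratio 0.47). The median over the 7 genes of this group was 0.27, with 4 above 0 and 3 below.

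The feedback genes and stress effectors were mostly at or slightly above their AS WT level. TRIB3, a pseudokinase that binds and restrains ATF4, had 21.6 FPKM in AS WT against 33.7 FPKM in AS STRAP KO, 1.56-fold higher (log2 ratio 0.64, interval 0.46 to 0.83). It was the only one of the 7 expressed genes of this group past 1.5-fold. PPP1R15A, the GADD34 subunit that dephosphorylates eIF2, had 67.7 and 56.5 FPKM (-0.26) and was the only gene of the group below 0. Both genes act as brakes on the response, and their ratios lay on opposite sides of 0.

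CHAC1, which degrades glutathione, had 6.72 FPKM in AS WT against 7.73 FPKM in AS STRAP KO, and its interval of -0.16 to 0.58 spanned 0. STC2, a secreted glycoprotein induced by stress, had 25.7 and 34.7 FPKM (log2 ratio 0.43). HERPUD1, an ER protein of the degradation of misfolded proteins, had 80.4 and 93.3 FPKM (log2 ratio 0.21). EIF4EBP1, which blocks cap-dependent translation, had 135 and 141 FPKM (log2 ratio 0.07). These 4 genes all stayed within 1.5-fold. VLDLR, a lipoprotein receptor, had 0.839 FPKM in AS WT against 1.11 FPKM in AS STRAP KO, with an interval that spanned 0.

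SESN2, a leucine sensor, had 2 rows, both listed at 0 in both libraries. Among protein-coding symbols with more than 1 row, 834 of 1193 (69.9%) were listed at 0 in all rows of both libraries, against 15.7% of the 17776 symbols with 1 row. A listing at 0 was therefore not read as absence for SESN2, nor for PCK2, the mitochondrial phosphoenolpyruvate carboxykinase, which also had 2 rows at 0.

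**Figure D2:**
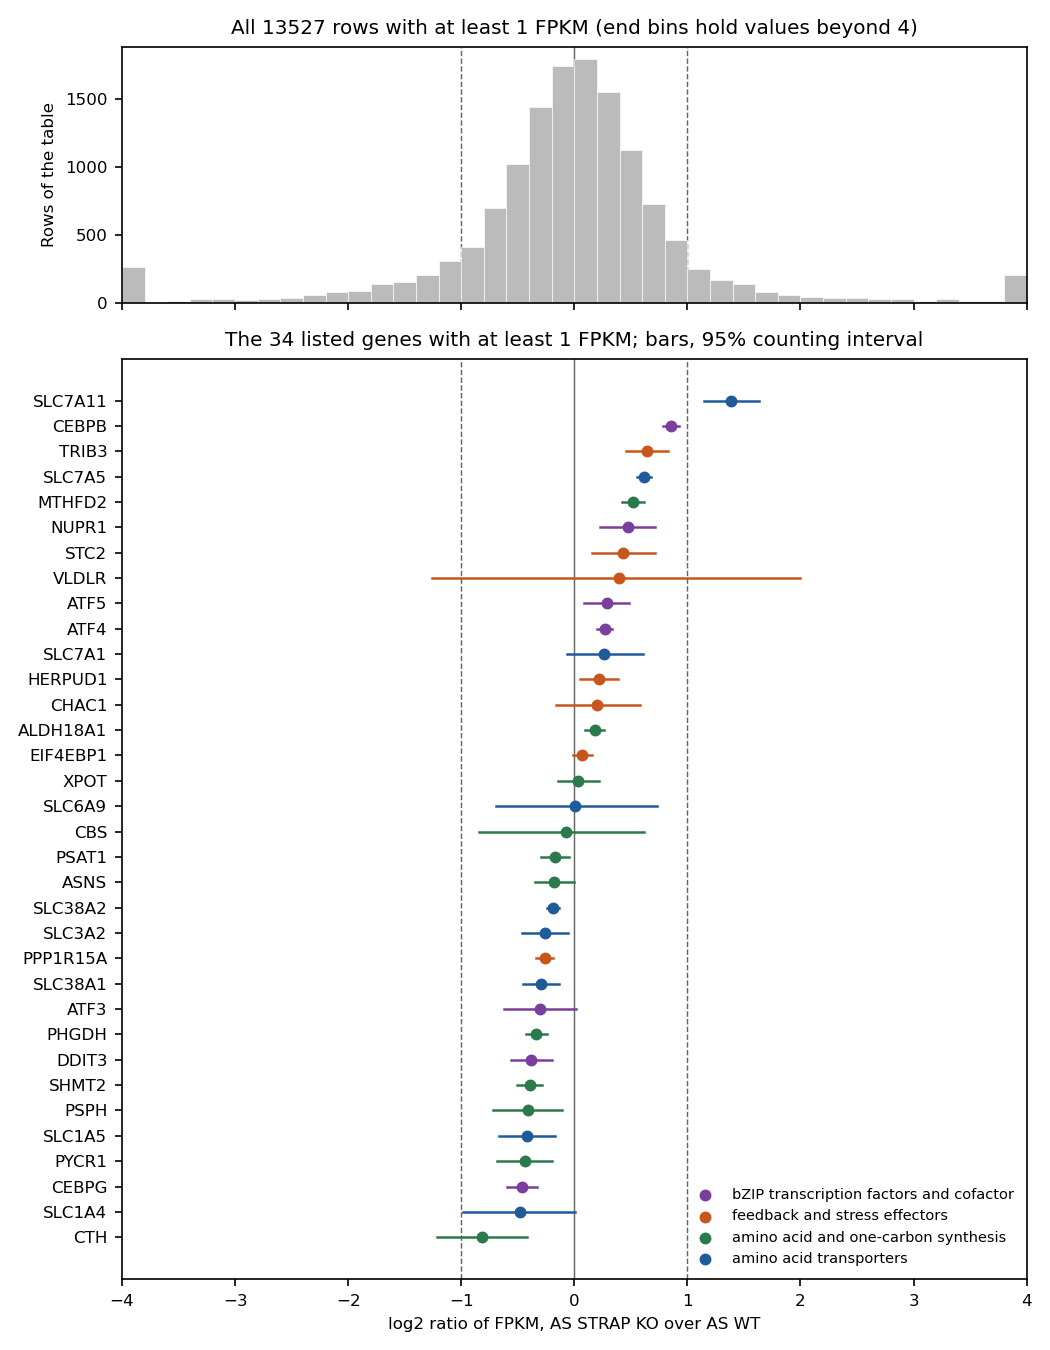
Upper panel, the number of rows by log2 ratio, AS STRAP KO over AS WT, for the 13527 expressed rows. Lower panel, the log2 ratio of the 34 listed genes with at least 1 FPKM, coloured by role, with 95% counting intervals and dashed lines at 2-fold. SLC7A11 alone lies past a dashed line, and 29 of the 34 genes lie within 1.5-fold.

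The enzymes of serine synthesis had lower values in AS STRAP KO, while a mitochondrial folate enzyme downstream of them was higher. PHGDH, the first enzyme of serine synthesis, had 239 FPKM in AS WT against 190 FPKM in AS STRAP KO (log2 ratio -0.34, interval -0.43 to -0.25). PSAT1, the second step, had 35.4 and 31.3 FPKM (-0.17). PSPH, the last step, had 23.4 and 17.6 FPKM (-0.41). SHMT2, which turns serine into glycine in mitochondria, had 165 and 126 FPKM (-0.39). All 4 stayed within 1.5-fold and were below 0 under every scaling.

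MTHFD2 uses the one-carbon unit that SHMT2 makes. It had 83.0 FPKM in AS WT against 119 FPKM in AS STRAP KO, 1.43-fold higher, with a log2 ratio of 0.52 (0.42 to 0.61). The level of MTHFD2 was 50.3% of that of SHMT2 in AS WT and 94.8% in AS STRAP KO. ALDH1L2, a further mitochondrial folate enzyme, was under 1 FPKM in both libraries, at 0.117 FPKM in AS WT against 0.452 FPKM in AS STRAP KO. Over its annotated protein-coding transcripts of 527 to 8198 bases these values stand for an estimated 1.00 to 24.5 reads and 3.95 to 96.6 reads, so the size of this difference is uncertain.

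CTH, the cystathionine gamma-lyase that releases cysteine, was the only one of the 34 genes at least 1.5-fold lower. It lies on chromosome 1 from 70411218 to 70439851 and had 5.62 FPKM in AS WT against 3.18 FPKM in AS STRAP KO, 1.77-fold lower, with a log2 ratio of -0.82 (-1.22 to -0.42). Of all rows, 13.3% had a ratio at least as low. CBS, the enzyme before CTH in transsulfuration, had 3.54 and 3.36 FPKM (interval -0.84 to 0.62). The table also lists CBSL, a near-identical copy that can share reads with CBS, at 0.332 and 0.327 FPKM, so the level of CBS is uncertain.

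Of the remaining genes of synthesis and tRNA supply, none passed 1.5-fold. ASNS, asparagine synthetase and a standard reporter of ATF4 activity, had 62.2 FPKM in AS WT against 54.9 FPKM in AS STRAP KO (log2 ratio -0.18, interval -0.35 to -0.01). In proline synthesis, ALDH18A1, which makes the precursor, had 27.4 and 31.0 FPKM (0.18). PYCR1, which makes proline from it and shares its row with MYADML2, had 69.9 and 51.6 FPKM (-0.44). XPOT, which exports tRNA from the nucleus, had 52.2 and 53.4 FPKM. The median over the 11 expressed genes of this group was -0.18, with 3 above 0 and 8 below, and ranged from -0.34 to -0.03 over the scalings.

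Among the transporters, the cystine carrier SLC7A11 had the highest ratio of all 34 genes, at a low level. It lies on chromosome 4 from 138164097 to 138242349 and had 0.779 FPKM in AS WT against 2.04 FPKM in AS STRAP KO, 2.61-fold higher (log2 ratio 1.39, interval 1.14 to 1.63). By its annotated protein-coding transcript of 9645 bases this is an estimated 193 and 513 reads. Of all rows, 5.29% had a ratio at least as high. The gene passed the limit of 1 FPKM only through AS STRAP KO, as did VLDLR, so its place above 2-fold is a description and was lost with 1 FPKM added to both values (log2 ratio 0.77).

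SLC7A5, the light chain of the leucine carrier LAT1, had 32.7 FPKM in AS WT against 50.1 FPKM in AS STRAP KO, 1.53-fold higher (log2 ratio 0.62, interval 0.55 to 0.68). It lies on chromosome 16 from 87830023 to 87869507. SLC3A2, the heavy chain that brings both SLC7A5 and SLC7A11 to the cell surface, had 247 and 206 FPKM (-0.26). The level of SLC7A5 was thus 13.3% of that of its heavy chain in AS WT and 24.3% in AS STRAP KO, and that of SLC7A11 was 0.316% and 0.988%. SLC7A1, the main carrier of arginine and lysine, had 15.2 and 18.3 FPKM (interval -0.06 to 0.60).

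The listed carriers SLC1A5, SLC38A1, SLC38A2 and SLC1A4, which take up glutamine or small neutral amino acids, had ratios below 0. SLC1A5, the glutamine carrier ASCT2, had 156 FPKM in AS WT against 117 FPKM in AS STRAP KO (log2 ratio -0.42, interval -0.67 to -0.17). SLC38A1 had 40.0 and 32.6 FPKM (-0.30) and SLC38A2, which is induced when amino acids are short, had 210 and 185 FPKM (-0.19). SLC1A4, a carrier of serine and alanine, had 3.13 and 2.24 FPKM (-0.48, interval -0.99 to 0.01). These 4 genes stayed within 1.5-fold. SLC1A5 was 4.77 times as abundant as SLC7A5 in AS WT and 2.33 times in AS STRAP KO.

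The glycine carrier SLC6A9 had 4.11 FPKM in AS WT against 4.13 FPKM in AS STRAP KO. SLC7A3, an arginine carrier, had 0.0187 FPKM in AS WT, an estimated 1.00 read, and its AS STRAP KO value was listed as 0, so no fold is given. The 9 expressed transporters had a median log2 ratio of -0.19, with 4 above 0 and 5 below.

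Ratios of genes can move with those of their chromosomal neighbours, so each gene was set beside the expressed protein-coding genes within 5 Mb of it, 6 to 161 genes in number. These neighbour medians ranged from -0.85 to 0.40, and 22 of the 34 genes had the sign of their neighbours. PSPH had the lowest neighbour median, -0.85 over 6 genes, and the neighbours of VLDLR had a median of 0.40, the same as VLDLR itself. PHGDH stood the other way, at -0.34 among neighbours with a median of 0.32. With the neighbour median subtracted, 7 genes changed sign, among them PSPH at 0.44, and 4 genes were at least 1.5-fold higher. These were SLC7A11 (1.05), STC2 (0.73), CEBPB (0.67) and SLC7A5 (0.64), while PHGDH (-0.66) was at least 1.5-fold lower. The shares of all rows that match their neighbours in sign, or pass 1.5-fold after this subtraction, were not computed. The counts therefore describe the listed genes only. The part of chromosomal position in these ratios was not tested.

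**Figure D3:**
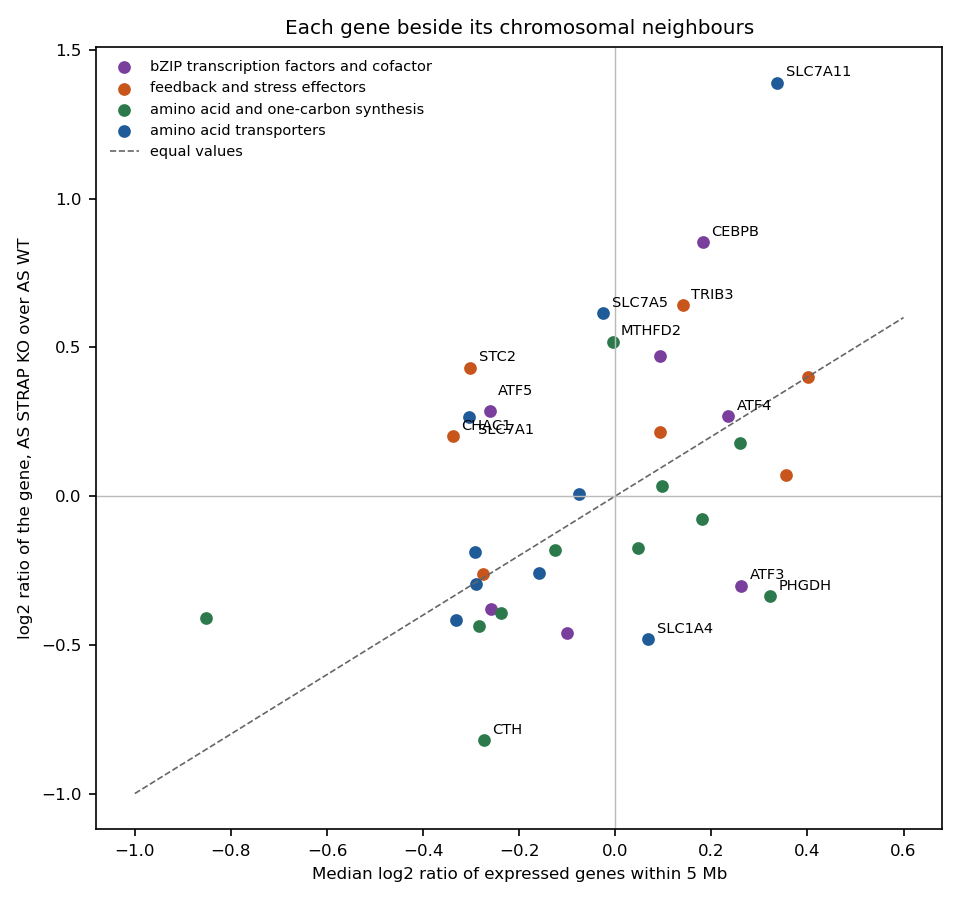
Log2 ratio of each of the 34 listed genes (vertical axis) against the median log2 ratio of the expressed protein-coding genes within 5 Mb of it (horizontal axis), with a dashed line where both are equal. SLC7A11, STC2, CEBPB and SLC7A5 lie at least 1.5-fold above the line and PHGDH lies at least 1.5-fold below it.

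Upstream of ATF4, a list of 17 genes covered eIF2, its exchange factor eIF2B, its kinases and their regulators, all with at least 1 FPKM. Their mRNA levels do not measure kinase activity or the phosphorylation of eIF2. None was beyond 2-fold, where 8.31% of all rows were higher and 10.6% lower. At least 1.5-fold lower was 1 gene, where 19.2% of all rows were. The median was 0.09, which turned to -0.07 under 1 scaling. EIF2AK4, the kinase GCN2 that senses uncharged tRNA, had 35.9 FPKM in AS WT against 20.8 FPKM in AS STRAP KO (log2 ratio -0.79). EIF2AK1, the heme-regulated kinase, had 65.1 FPKM in AS WT and a log2 ratio of -0.56. OMA1, the protease that relays mitochondrial stress to EIF2AK1 and which shares its row with DAB1, had 10.5 and 15.4 FPKM (0.56). The neighbour medians within 5 Mb were -0.37 for EIF2AK4, -0.46 for EIF2AK1 and 0.03 for OMA1, and the part of position was not tested.

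Of 12 cytosolic aminoacyl-tRNA synthetase genes with a reported ATF4 response, which the table lists under older symbols such as GARS, none was beyond 1.5-fold. Of all rows, 17.6% were higher and 19.2% lower by that much. The median of the 12 was -0.16. The lowest were those for serine, glycine and methionine, SARS1 at 134 and 90.4 FPKM, GARS1 at 214 and 145 FPKM and MARS1 at 373 and 253 FPKM. Their neighbour medians were also below 0, at -0.32, -0.42 and -0.26. Of the 7 expressed synthetase genes outside that response none was beyond 1.5-fold either, with RARS1 lowest at -0.54 and FARSA at 0.24. A list of 14 other expressed targets of ATF4 or DDIT3 had a median of 0.27, with 10 above 0 and 4 below. By 1.5-fold or more 4 were higher and 1 was lower, where 17.6% and 19.2% of all rows were. Past 2-fold upward were 2 of the 14, where 8.31% of all rows were, and none was downward, where 10.6% were. The 2 were GDF15, a stress cytokine that other pathways also induce, at 15.9 and 60.0 FPKM, and the AP-1 repressor JDP2, at 5.18 and 12.1 FPKM. The TRAIL receptor TNFRSF10B, a target of CHOP, had 42.5 and 69.8 FPKM (0.71).

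A further list held genes of the ATF6 and XBP1 branch of the unfolded protein response, which shares HERPUD1 with ATF4, and ER chaperones. Most of its genes had lower values, but not all parts of the branch did. Of its 19 expressed genes 14 were below 0 and 5 above, where 50.1% of all rows were above 0. The median was -0.24, from -0.40 to -0.09 over the scalings. By 1.5-fold or more 2 were higher and 2 were lower, where 17.6% and 19.2% of all rows were. SDF2L1, an ER chaperone cofactor, was the only one at least 2-fold lower, where 10.6% of all rows were. It had 75.0 FPKM in AS WT against 36.5 FPKM in AS STRAP KO. DNAJB11, which shares its row with AC068631.2, had a log2 ratio of -0.62. XBP1 had a log2 ratio of -0.58, and SYVN1, also below 0, shares its row with FAU. DNAJB9, another ER co-chaperone, had the highest ratio, at 6.58 and 10.4 FPKM (0.66). The other genes above 0 were EDEM1 (0.62), ATF6 itself (0.50), DNAJC3 (0.34) and ERN1 (0.28).

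**Figure D4:**
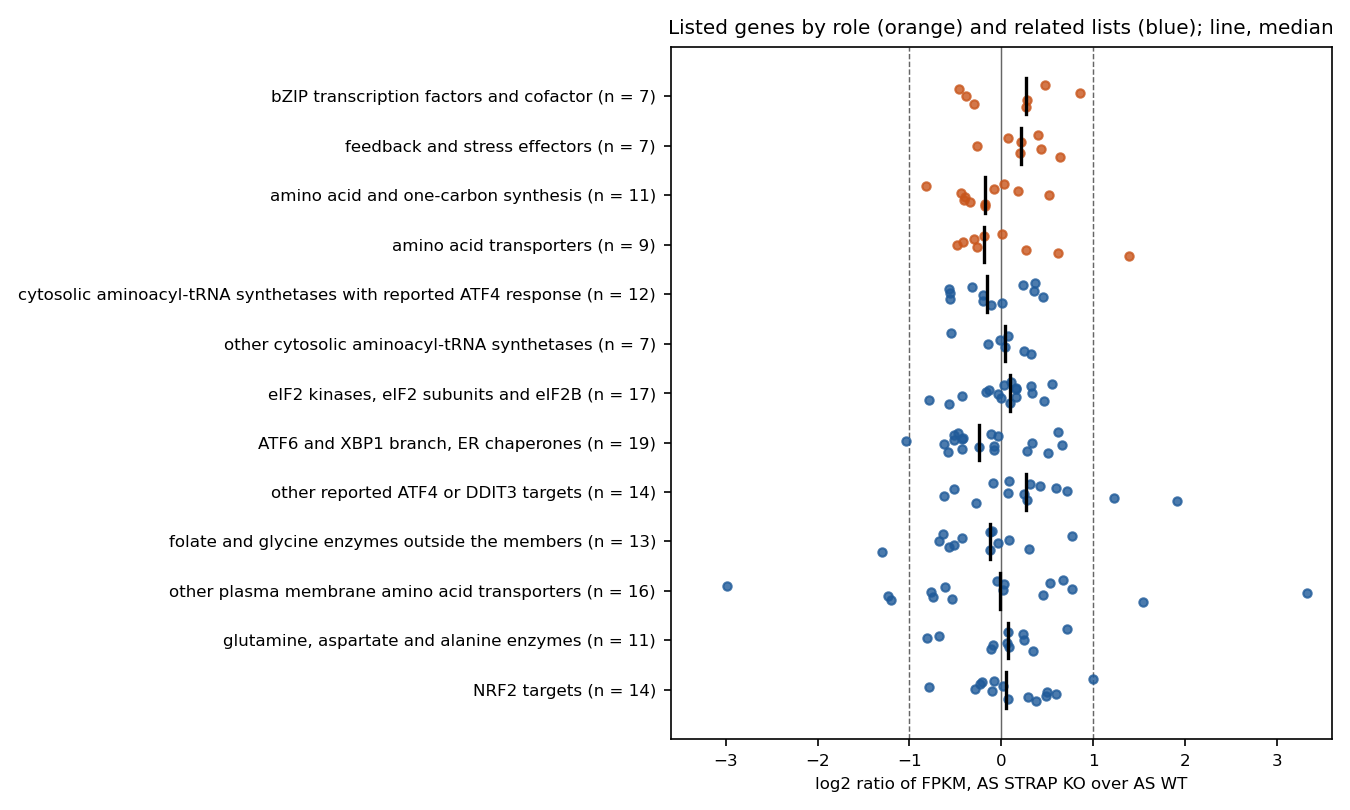
Log2 ratios of the expressed genes in the 4 role groups of the 38 genes (orange) and in 9 related lists (blue), 1 point per gene, with black lines at the medians and dashed lines at 2-fold. All medians lie between -0.24 and 0.27, and the widest spread is that of the other amino acid transporters.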

How the data were processed

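The unit of the deposited table is FPKM. The authors selected poly A RNA, prepared strand-specific libraries and sequenced single-end reads, and their methods name STAR, GRCh38, GENCODE release 32 and Cufflinks. Versions in the submitters' notes are bcl2fastq 2.18.0.12, STAR 2.7.6 and Cufflinks 2.2.1, with Cuffdiff, whose test results were not used here. The sources used here do not say how replicates entered the table.

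For each row that reached 1 FPKM in either library, AS STRAP KO was divided by AS WT and the log2 taken. The 38 genes, 9 related lists and 3 marker lists were chosen with earlier results of these data known. All 38 genes are named, with up to 3 genes of each related list that have the largest absolute ratio at 5 FPKM or more. Some marker genes were named after their values were seen, as were XBP1, SYVN1, EDEM1, ATF6, DNAJC3 and ERN1. Results of some genes of the lists are not reported here.

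To estimate depth, single-transcript genes of 1500 bases or more were taken, with lengths reduced by 200 bases. Of their 368 and 320 values between 1 and 5 reads, 94.8% and 93.8% fell within 0.1 of a whole read. Positions, transcript lengths and neighbours come from GENCODE 44 on GRCh38, and promoter windows from RefSeq. The computations were tested on simulated data. They ran in Python 3.11.15 with pandas 2.3.3, numpy 2.4.6, matplotlib 3.10.9 and SciPy 1.17.1.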

Additional observations from a re-analysis of the deposited data

How the results depend on the processing

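With 1 library per condition, these values describe 2 libraries, and a difference between a clone and its parental culture cannot be told apart from one caused by the edit. Over 11 alternative settings and 2 chosen after seeing the data (the common total without mitochondrial rows and the upper quartile of rows above 0), the count of genes at least 2-fold higher, 1 of 34, became 0 with 1 FPKM added (5.32% of all rows), 0 where both libraries had to reach 1 FPKM (4.87%), 0 with at least 10 FPKM in 1 library (4.75%), 2 with no filter (16.8%) and 2 with a common total without mitochondrial rows (11.9%), where CEBPB reached a log2 ratio of 1.00. The count at least 2-fold lower, 0, became 1 with no filter (24.5%), through SLC7A3. The median of -0.03 became -0.17 with at least 10 FPKM, over 27 genes. It became 0.0725 with a common total, 0.12 with a common total without mitochondrial rows and -0.19 with the upper quartile of rows above 0, while the median of all rows moved to 0.11, 0.15 and -0.16. Of 431 values of single genes under the alternatives, 51 left the gene's counting interval, and SLC7A11 fell below 2-fold (log2 ratio 0.77) with 1 FPKM added, which pulls low values together. A scaling adds the same amount to every ratio. No paired analysis was possible because each condition has 1 library.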

Other observations

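Amino acid carriers outside the 38 genes included several with large ratios. Among the 16 expressed ones 2 passed 2-fold upward and 3 downward, where 8.31% and 10.6% of all rows did. Of these genes, 1 in each direction had reached 1 FPKM only in the library where it was high. The median log2 ratio of -0.02 ranged from -0.17 to 0.13 over the scalings. SLC7A7, which pairs with SLC3A2 to exchange cationic and neutral amino acids, had 1.28 FPKM in AS WT against 12.9 FPKM in AS STRAP KO (log2 ratio 3.33). The arginine carrier SLC7A2 had 11.9 and 5.07 FPKM (-1.23), and the glutamate carrier SLC1A3 had 7.23 and 3.13 FPKM (-1.21). SLC7A7 thus passed SLC7A2 in AS STRAP KO, while SLC7A1, at 15.2 and 18.3 FPKM, stayed the most abundant of these carriers of arginine in both libraries.

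Of 14 targets of NRF2, a factor that also induces SLC7A11, none was beyond 2-fold, where 8.31% of all rows were higher and 10.6% lower. The median was 0.05, which turned to -0.11 under 1 scaling. Both subunits of the first enzyme of glutathione synthesis were above 0, GCLC at 14.2 and 21.4 FPKM (log2 ratio 0.59) and GCLM at 12.2 and 17.2 FPKM (0.50), while TALDO1 of the pentose phosphate pathway had 169 and 97.8 FPKM (-0.79).

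Of 11 expressed genes of glutamine, aspartate, proline and alanine metabolism none was beyond 2-fold, where 8.31% of all rows were higher and 10.6% lower. ASS1, which joins aspartate to citrulline on the way to arginine, had 283 FPKM in AS WT against 162 FPKM in AS STRAP KO (-0.80). ASL, the next step, had a log2 ratio of -0.67 in a row shared with AC068533.4 and CRCP. OAT, ornithine aminotransferase, had 25.9 and 42.5 FPKM (0.71). Of 13 folate and glycine genes outside the 38, 3 were lower and 1 was higher by 1.5-fold or more, where 19.2% and 17.6% of all rows were. Of the 3, 1 had reached 1 FPKM only in AS WT. The median of -0.13 turned to 0.02 under 1 scaling. TYMS, thymidylate synthase, had 255 and 159 FPKM (-0.68), and MTHFD2L, a paralog of MTHFD2, had 6.76 and 4.54 FPKM (-0.57). AMT, of the glycine cleavage system, had a log2 ratio of -0.63 in a row shared with AC104452.1 and NICN1.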
